A study of Bos taurus with 6 samples.

Results

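Collagen gene expression was measured by RNA-seq in cells of the side population (SP) and the main population (MP), both sorted from the endometrium, the lining of the uterus, of cows (Bos taurus) in the luteal phase of the cycle. The members are all genes whose symbol is COL, a number, A and a number; 43 of 34733 named genes met this rule. Of these, 11 encode fibrillar collagens, 6 basement membrane (type IV) collagens, 4 beaded filament (type VI) collagens, 10 FACITs (fibril-associated collagens with interrupted triple helices) and 12 other types. Per the labels' protocols, luminal epithelium was removed from tissue between the caruncles, collagenase freed the stromal cells, and the dye Hoechst was added. SP cells (3 libraries) pump the dye out, and MP cells (3 libraries) keep it; dead cells were left out with propidium iodide. The labels name no surface marker for the sort, the uteri came from slaughterhouses, and the labels do not say whether the replicates are separate animals. The p-values therefore measure only the spread between these libraries, which may be technical.

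Collagens are trimers wound from chains that separate genes encode. Fibrillar types I, III and V build the load-bearing fibrils of connective tissue and are made mainly by fibroblasts, the main cells of the endometrial stroma. Type IV collagen forms the sheet-like network under endothelium and epithelium and around smooth muscle, type VI forms beaded filaments around cells, and FACITs sit on the surface of fibrils. Types XV and XVIII, the multiplexins, bind at basement membranes, and the end piece of type XVIII is released as endostatin.

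Expression is given as FPKM, a fragment count divided by the length of the transcript and the size of the library, which lets chains be compared within a library. Low values step in whole fragments, and their ratios put the depth of SP replicates 2 and 3 at 1.60 and 1.82 times, and that of MP replicates 1 to 3 at 2.32, 3.18 and 1.99 times, that of SP replicate 1. Markers of cell types differed between the populations. Over all tested genes 20.5% passed as higher in SP and 18.7% as lower. Of 12 endothelial markers 11 passed as higher in SP, with a summed level of 1439 to 2169 FPKM in SP and 135 to 843 FPKM in MP. The exception, CLDN5, had a log2 fold change of −0.22 and did not pass. All 10 fibroblast markers passed as lower in SP, a direction that the filter described below fixed for DPT and HAND2, with 184 to 329.7 FPKM in SP and 2339.9 to 8440.1 FPKM in MP; the receptor PDGFRA averaged 0.885 ± 0.588 FPKM (SD, n = 3) in SP and 16.8 ± 8.01 FPKM (SD, n = 3) in MP. Of 9 tested mural (pericyte and smooth muscle) markers 5 were lower in SP (213 to 293 FPKM summed in SP, 665 to 1134 FPKM in MP). All 10 leukocyte markers were lower (1.64 to 6.55 FPKM in SP, 298 to 556 FPKM in MP), AIF1 being listed at 0 in SP replicate 1; 7 of the 10 were under 1 FPKM in every SP library, so the filter fixed their direction. None of 10 epithelial markers passed (196 to 1803 FPKM in SP, 1023 to 4705 FPKM in MP). The part of these marker groups in the collagen results described below was not tested. In sorted pools, fewer cells of a type and less RNA per cell cannot be told apart.

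The collagen message of the populations differed in amount and in make-up. All 43 members together summed to 656, 399 and 562 FPKM in SP, against 5122, 922 and 1444 FPKM in MP. Every SP library lay under every MP library. This was 0.0754%, 0.0534% and 0.0868% of all FPKM in SP and 0.636%, 0.107% and 0.150% in MP. Fibrillar genes held 31.8%, 35.1% and 37.3% of the collagen sum in SP, against 72.3%, 62.3% and 67.0% in MP. Basement membrane genes held 39.0%, 26.4% and 24.8% in SP, against 1.91%, 2.98% and 4.23% in MP. Beaded filament genes held 5.52%, 6.88% and 12.8% in SP, against 22.9%, 28.1% and 20.3% in MP. The multiplexins COL15A1 and COL18A1 alone held 20.1%, 25.5% and 20.5% in SP, against 1.90%, 4.69% and 6.28% in MP. For each of these types the SP and MP shares did not overlap. A share also depends on the other types, so a higher share need not mean a higher level. The multiplexins summed to 132, 102 and 115 FPKM in SP, against 97.6, 43.2 and 90.7 FPKM in MP. The shares do not depend on the scaling between libraries; being sums over chosen members, they were not tested.

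**Figure D1:**
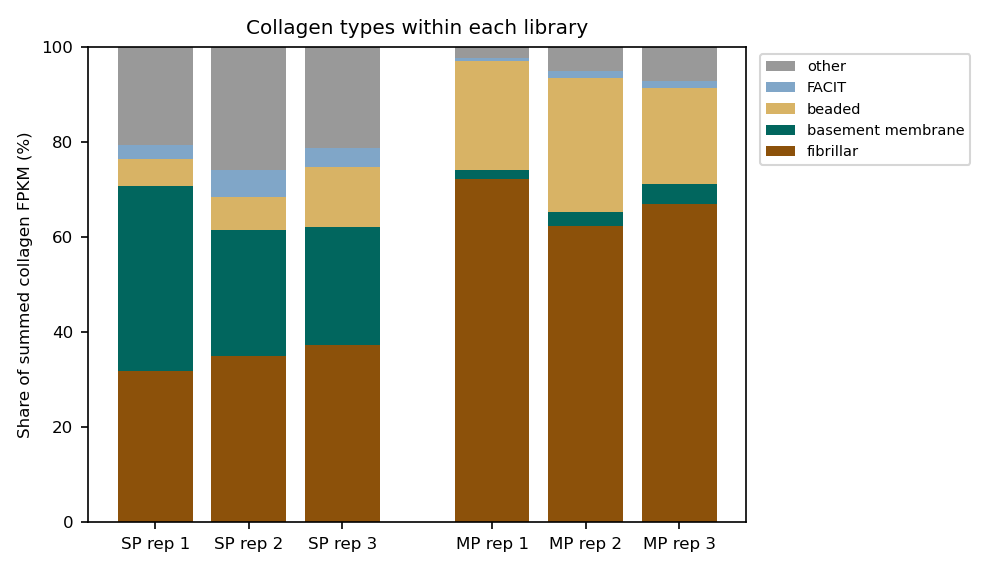
Share of the summed FPKM of the 43 collagen genes held by each type (vertical axis, percent) in the 3 SP and 3 MP libraries (horizontal axis). Fibrillar genes take 31.8% to 37.3% of the bars of SP and 62.3% to 72.3% of those of MP, and basement membrane genes 24.8% to 39.0% in SP and 1.91% to 4.23% in MP.

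The fibrillar sum averaged 186 ± 39.9 FPKM in SP, against 1749 ± 1705 FPKM in MP (SD over 3 libraries a group), and the log2 ratio of the means was −3.23. MP replicate 1 carried much of this, at 3704 FPKM against 575 and 967 FPKM in MP replicates 2 and 3, and without it the log2 ratio was −2.05. The beaded sum was 45.2 ± 23.5 FPKM in SP and 574 ± 517 FPKM in MP, a log2 ratio of −3.67, or −2.61 without MP replicate 1. For all collagens the log2 ratio of the means was −2.21, or −1.13 without MP replicate 1. The basement membrane sum ran the other way, with 167 ± 79.0 FPKM in SP against 62.1 ± 35.1 FPKM in MP, a log2 ratio of 1.43. SP replicate 1 was at 256 FPKM, against 105 and 140 FPKM in SP replicates 2 and 3. SP replicate 2 lay only just above MP replicate 1, at 97.8 FPKM. With 1 library left out this log2 ratio ran from 0.98 to 1.91. The FACIT sums were alike in the mean, 21.8 ± 1.22 FPKM in SP and 22.1 ± 9.91 FPKM in MP.

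A gene was tested if it reached 1 FPKM in at least 3 of the 6 libraries, on log2(FPKM + 1) with limma across all 12127 such genes. Of the 43 collagen genes 20 were tested. At a Benjamini-Hochberg adjusted p under 0.05, 3 were higher in SP (COL4A1, COL4A2, COL12A1), 10 were lower and 7 did not pass. Over all tested genes 20.5% were called higher, 18.7% lower and 39.2% in either direction; of the tested collagens 15% were higher and 50% lower. COL4A5 and COL4A6 were under 1 FPKM in every SP library and so could be tested only if they were higher in MP. The median log2 fold change was −0.80 over the 20 tested collagens and 0.01 over all tested genes. The SP and MP values did not overlap in 15 of the 20, 4 higher and 11 lower in SP, against 54.8% of all tested genes (28.3% higher, 26.5% lower). With FPKM rescaled to a sum of 1e+06, which shifted the median of all genes to 0.19, 68.0% of all calls were higher in SP, against 52.3% as deposited; the collagen calls were then 4 higher and 9 lower. The 3 higher calls were the less stable side, with 0, 1 and 1 left without SP replicates 1, 2 and 3, 3 without MP replicate 1, 0 without MP replicate 2 and 2 without MP replicate 3. Lower calls numbered 6, 6 and 8 without SP replicates 1, 2 and 3 and 7, 14 and 7 without MP replicates 1, 2 and 3.

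**Figure D2:**
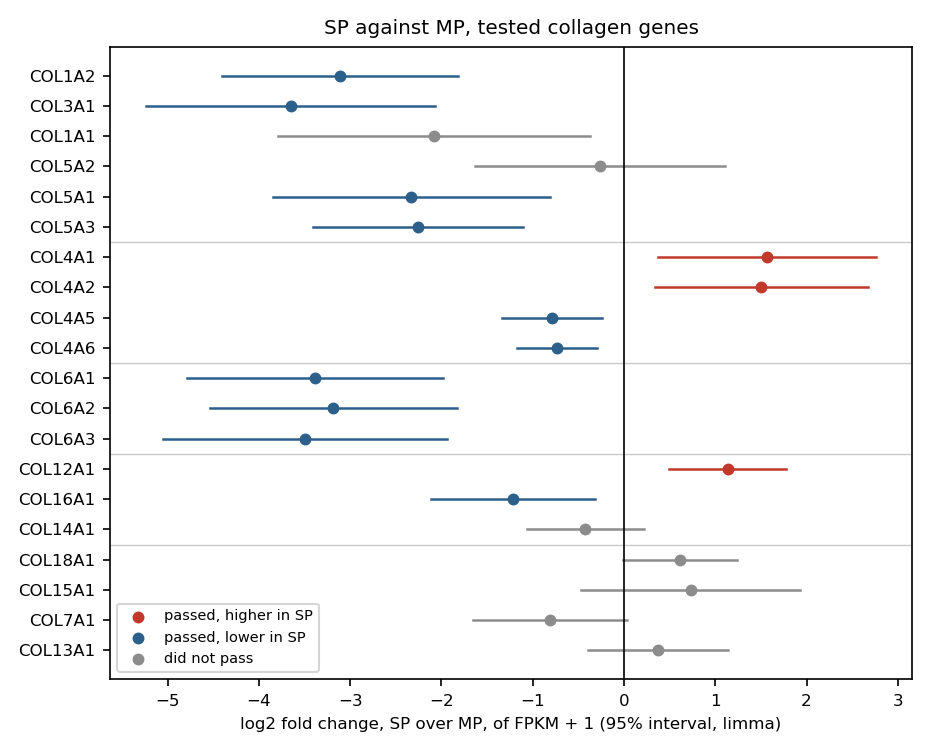
log2 fold change of SP over MP (horizontal axis, on FPKM + 1, limma) with its 95% interval for the 20 tested collagen genes, ordered by type from fibrillar at the top to other types at the bottom. Red points passed as higher in SP, blue as lower, grey did not pass; COL3A1 lies lowest at −3.65 and COL4A1 highest at 1.56.

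Among fibrillar genes, the chains of types I, III and V set the level, and 4 of 6 tested fell in SP while none rose. COL3A1 (chromosome 2, 7375277 to 7414912, build ARS-UCD1.2) encodes the type III chain, abundant in distensible organs such as the uterus. It was at 30.9, 21.2 and 55.7 FPKM in SP against 1309, 195 and 308 FPKM in MP (log2 fold change −3.65 ± 0.68 SE, limma adjusted p = 0.00709). COL1A2 (chromosome 4, 11776443 to 11813113), which encodes the second type of chain of type I collagen, was at 61.5, 44.5 and 62.8 FPKM in SP against 1308, 269 and 330.1 FPKM in MP. It fell with a log2 fold change of −3.11 ± 0.56 SE and a limma adjusted p of 0.00638. In both genes the highest SP value lay well under the lowest MP value, and both were called in 18 of 18 alternatives.

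COL1A1 (chromosome 19, 36457700 to 36475647), which encodes the main chain of type I collagen, was at 78.8, 53.9 and 74.0 FPKM in SP against 964, 90.5 and 280.5 FPKM in MP. The groups did not overlap, but MP replicate 2 lay close to SP replicate 1, and the gene did not pass (log2 fold change −2.08 ± 0.74 SE, 95% interval −3.79 to −0.37, limma adjusted p = 0.0565). Without MP replicate 2 it passed with −2.92 (limma adjusted p = 0.0144). By rank of FPKM among the 34733 named genes, COL1A1 stood at 1190, 1513 and 1010 in SP and at 147, 968 and 366 in MP.

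Type V collagen starts and narrows type I fibrils, and its 3 genes did not move alike. COL5A1 was at 2.95, 2.03 and 3.73 FPKM in SP against 51.6, 5.83 and 19.0 FPKM in MP (log2 fold change −2.33 ± 0.66 SE, limma adjusted p = 0.0271). COL5A3 was at 0.289, 0.323 and 1.00 FPKM in SP against 13.6, 2.42 and 6.39 FPKM in MP (−2.25 ± 0.50 SE, limma adjusted p = 0.0122). COL5A2, whose chain pairs with that of COL5A1, was at 33.5, 17.1 and 11.2 FPKM in SP against 53.3, 10.9 and 19.3 FPKM in MP. The groups overlapped, and its log2 fold change of −0.26 had a 95% interval from −1.63 to 1.11. The call of COL5A1 was lost without SP replicates 1, 2 or 3 (limma adjusted p = 0.0743, 0.0777 and 0.0583) and without MP replicates 1 or 3 (0.0506 and 0.0543).

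The other 5 fibrillar genes were not tested. COL2A1, the collagen of cartilage, was at 0.0167, 0.0210 and 0.0184 FPKM in SP against 1.42, 0.0475 and 0.827 FPKM in MP. COL27A1, another collagen of cartilage, was at 0.0948, 0.383 and 0.394 FPKM in SP against 1.98, 0.696 and 1.84 FPKM in MP. For both, MP replicate 2 fell well below the other MP libraries. COL11A1, COL11A2 and COL24A1 stayed under 1 FPKM in all 6 libraries.

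Type IV genes split by chain. COL4A1 and COL4A2, whose chains form the network of nearly all basement membranes, rose in SP. COL4A1 (chromosome 12, 84863916 to 84995777) was at 143, 52.6 and 80.7 FPKM in SP against 49.7, 13.7 and 31.7 FPKM in MP (log2 fold change 1.56 ± 0.51 SE, limma adjusted p = 0.0445). COL4A2 (chromosome 12, 84996072 to 85154028) was at 112, 51.6 and 57.1 FPKM in SP against 44.3, 11.2 and 26.4 FPKM in MP (1.51 ± 0.50 SE, limma adjusted p = 0.0472). The groups did not overlap, though SP replicate 2 stood only just above MP replicate 1. By its mean of 92.2 FPKM COL4A1 was the most abundant collagen message in SP. There COL4A2 averaged 73.6, COL3A1 36.0, COL18A1 65.9 and COL1A1 68.9 FPKM. The SP range of COL4A1 overlapped those of COL4A2, COL1A1, COL18A1, COL1A2, COL15A1 and COL3A1. In SP replicate 2 COL18A1 at 70.9 FPKM and COL1A1 at 53.9 FPKM lay above COL4A1 at 52.6 FPKM.

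Both calls lay near the threshold. COL4A1 did not pass without SP replicates 1 or 3 (limma adjusted p = 0.140 and 0.0965) or without MP replicates 2 or 3 (0.117 and 0.0685). COL4A2 did not pass without SP replicates 1, 2 or 3 (0.148, 0.0686 and 0.0838) or without MP replicates 2 or 3 (0.117 and 0.0738), and its log2 fold change without MP replicate 2 was 1.00. The summed endothelial markers were 2169, 1678 and 1439 FPKM in SP against 135, 282 and 843 FPKM in MP, and their part in the rise of COL4A1 and COL4A2 was not tested. The ratio of COL4A1 to the endothelial cadherin CDH5 was 0.807, 0.392 and 0.613 in SP against 7.29, 0.741 and 0.620 in MP.

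The other type IV chains were near or below 1 FPKM. COL4A5 was at 0.142, 0.504 and 0.813 FPKM in SP against 1.87, 1.21 and 1.54 FPKM in MP (log2 fold change −0.79 ± 0.24 SE, limma adjusted p = 0.0333). COL4A6 was at 0.152, 0.286 and 0.469 FPKM in SP against 1.15, 1.18 and 1.13 FPKM in MP (−0.73 ± 0.19 SE, limma adjusted p = 0.0197). Their chains form a network around smooth muscle. Of the 9 tested mural markers, ACTA2, CNN1, DES, LMOD1 and PDGFRB passed as lower in SP. MYH11, RGS5, NOTCH3 and MCAM did not pass, with log2 fold changes of −0.83, −0.78, −0.64 and 1.34. The part of mural cells in the COL4A5 and COL4A6 result was not tested. The call of COL4A5 was lost without SP replicates 1 or 2 (limma adjusted p = 0.120 and 0.0860) and without MP replicates 1, 2 or 3 (0.0923, 0.0543 and 0.0605). It was also lost after rescaling to a sum of 1e+06. COL4A6 was lost without SP replicates 1 or 2 (0.0828 and 0.0701) and without MP replicate 2 (0.0544). COL4A3 and COL4A4, which encode some of the chains of the kidney glomerulus, were not tested. COL4A3 had 0.141, 0.167 and 0.104 FPKM in SP against 0.0339, 0.0396 and a listed 0 in MP, and COL4A4 had at most 0.306 FPKM in SP and 0.741 FPKM in MP.

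Type IV genes lie in adjacent pairs, which in mammals are transcribed away from each other from a shared promoter. In these files 294 bases part COL4A1 from COL4A2, 247 bases part COL4A4 from COL4A3 on chromosome 2, and 1293 bases part COL4A6 from COL4A5 on the X chromosome, with no listed gene between. COL4A1 and COL4A2 had log2 fold changes close to each other, 1.56 and 1.51. COL4A5 and COL4A6 had −0.79 and −0.73, but the filter fixed the direction of both. COL4A3 and COL4A4 were not tested, and with no filter on low values had 0.15 and −0.24, neither called. The neighbours COL5A2 and COL3A1, 16463 bases apart on chromosome 2, lay far apart: COL5A2 had −0.26 and COL3A1 −3.65. COL6A1 and COL6A2, 119073 bases apart on chromosome 1, had −3.38 and −3.19. The part of shared promoters or of position in these values was not tested.

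**Figure D3:**
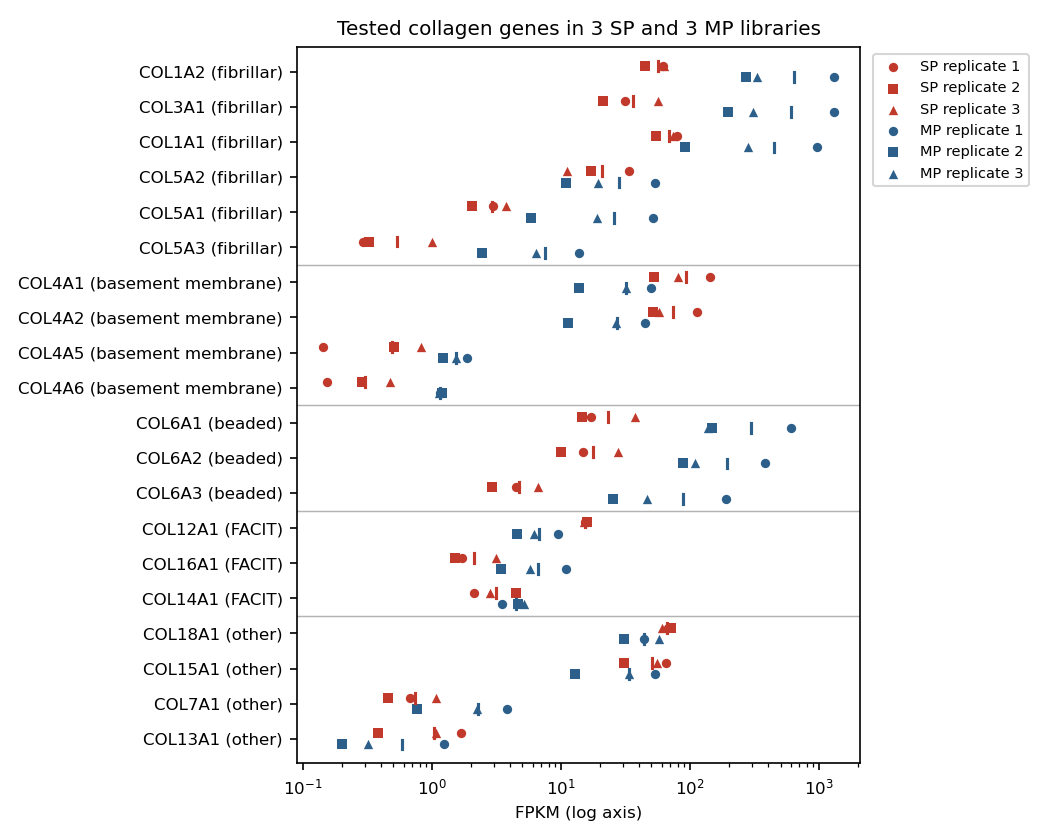
FPKM (horizontal log axis) of the 20 tested collagen genes in each SP library (red) and each MP library (blue), with a vertical tick at each group's mean and a marker shape for each replicate number. SP values of COL6A1 lie between 14.5 and 37.4 FPKM, all under the MP values of 137 to 599 FPKM, while those of COL12A1 lie between 14.99 and 15.9 FPKM, above every MP value.

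All 3 tested beaded filament genes fell in SP, by amounts close to each other. COL6A1 (chromosome 1, 145668729 to 145687976) was at 17.0, 14.5 and 37.4 FPKM in SP against 599, 146 and 137 FPKM in MP (log2 fold change −3.38 ± 0.61 SE, limma adjusted p = 0.00632). COL6A2 (chromosome 1, 145807050 to 145838162) was at 14.8, 10.0 and 27.7 FPKM in SP against 382, 88.4 and 109 FPKM in MP (−3.19 ± 0.58 SE, limma adjusted p = 0.00671). COL6A3 (chromosome 3, 116781706 to 116872758), the largest of the chains, was at 4.48, 2.90 and 6.65 FPKM in SP against 189.8, 25.1 and 46.4 FPKM in MP (−3.50 ± 0.67 SE, limma adjusted p = 0.00769). Each was called in 18 of 18 alternatives, and SP replicate 3 was the highest SP library for each, as it was for the summed fibroblast markers. MP replicate 1 was the highest MP library for these genes and for those markers. The markers and COL6A1 were lowest in MP replicate 3, but COL6A2 and COL6A3 in MP replicate 2. The part of fibroblasts in these falls was not tested. COL6A5 stayed under 0.1 FPKM in all libraries and was listed at 0 in SP replicate 2 and MP replicate 2.

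The FACIT genes held 1 call in each direction. COL12A1 (chromosome 9, 14661263 to 14779844) encodes type XII collagen, a FACIT of dense connective tissue under load. It was at 15.3, 15.9 and 14.99 FPKM in SP against 9.47, 4.57 and 6.15 FPKM in MP. Its log2 fold change was 1.14 ± 0.28 (SE; limma adjusted p = 0.0167), and the groups did not overlap. The call was lost without SP replicates 1 or 2 (limma adjusted p = 0.0533 and 0.0519) or without MP replicate 2 (0.0510), with log2 fold changes of 1.14, 1.11 and 0.92.

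COL16A1 (chromosome 2, 122012297 to 122068567), a minor FACIT of skin and other tissues, was at 1.70, 1.495 and 3.12 FPKM in SP against 10.8, 3.43 and 5.70 FPKM in MP (−1.22 ± 0.39 SE, limma adjusted p = 0.0407). It was lost without SP replicates 1, 2 or 3 (0.116, 0.116 and 0.0528), without MP replicates 1 or 3 (0.0978 and 0.0673), and after rescaling to a sum of 1e+06 (0.0885). COL14A1 had 2.12, 4.45 and 2.79 FPKM in SP against 3.49, 4.61 and 5.18 FPKM in MP and did not pass (−0.42, 95% interval −1.07 to 0.22); its locus overlaps that of another tested gene, LOC112449642. Of the 7 FACIT genes not tested, COL9A3 was at 0.0209, 0.0656 and 0.207 FPKM in SP against 8.12, 0.758 and 1.46 FPKM in MP. COL9A2 had 1.07, 0.327 and 0.892 FPKM in SP against 0.663, a listed 0 and 0.569 FPKM in MP. COL9A1, COL20A1, COL21A1 and COL22A1 stayed under 1 FPKM throughout, and COL19A1 was listed at 0 in all 6 libraries.

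None of the 4 tested genes of other types passed, the multiplexins among them. COL18A1 (chromosome 1, 145196902 to 145296602) was at 66.6, 70.9 and 60.1 FPKM in SP against 44.0, 30.5 and 57.2 FPKM in MP. Every SP value lay above every MP value, but MP replicate 3 came near, and the log2 fold change of 0.62 had a 95% interval from −0.01 to 1.24 (limma adjusted p = 0.104). It passed without MP replicate 3 (0.83, limma adjusted p = 0.0410) and after rescaling to a sum of 1e+06 (0.84, limma adjusted p = 0.0372). Its locus overlaps that of another tested gene, LOC101907800, and reads of the pair may not be told apart. COL15A1 (chromosome 8, 63974715 to 64078125) was at 65.0, 30.6 and 55.4 FPKM in SP against 53.6, 12.7 and 33.5 FPKM in MP, with overlapping groups (0.73, 95% interval −0.47 to 1.93). The ratio of COL18A1 to CDH5 was 0.376, 0.528 and 0.456 in SP against 6.46, 1.65 and 1.12 in MP.

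COL7A1, which forms anchoring fibrils under epithelium, was at 0.674, 0.455 and 1.08 FPKM in SP against 3.78, 0.763 and 2.24 FPKM in MP, and passed only without MP replicate 2 (−1.20, limma adjusted p = 0.0299). COL13A1, a transmembrane collagen, had 1.67, 0.378 and 1.07 FPKM in SP against 1.24, 0.199 and 0.319 FPKM in MP and did not pass. Among the 8 not tested, COL26A1 was at 0.0864, 0.215 and 0.486 FPKM in SP against 10.2, 0.910 and 6.88 FPKM in MP. COL23A1, another transmembrane collagen, was at 0.166, 0.156 and 0.0455 FPKM in SP against 2.61, 0.514 and 2.09 FPKM in MP. MP replicate 2 missed the 1 FPKM limit for both. Without MP replicate 2, COL26A1, COL23A1, COL27A1 and COL9A3 were tested and fell in SP (limma adjusted p = 0.00297, 0.00776, 0.0177 and 0.0307). All 4 were under 1 FPKM in every SP library, so the filter fixed the direction. With no filter on low values none of the 4 passed (limma adjusted p = 0.0707, 0.0534, 0.0537 and 0.107). COL8A1, COL8A2, COL10A1, COL17A1, COL25A1 and COL28A1 stayed under 1 FPKM in every library.

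Chains of a trimer, or of neighbouring types, were then set against each other within each library, which removes the scaling between libraries. The ratios of COL3A1 to COL1A1 and of COL18A1 to COL15A1 are between types. Of 8 ratios, 7 could be computed, as COL8A1 and COL8A2 were below 1 FPKM. Type I trimers hold more chains from COL1A1 than from COL1A2. The ratio of COL1A1 to COL1A2 was 1.28, 1.21 and 1.18 in SP against 0.737, 0.337 and 0.850 in MP. The log2 difference was 1.04, and without MP replicate 2 it was 0.63. The ratio of COL3A1 to COL1A1 was 0.392, 0.393 and 0.753 in SP against 1.36, 2.16 and 1.10 in MP, so COL3A1 exceeded COL1A1 in every MP library and in no SP library. The ratio of COL5A1 to COL5A2 was 0.0880, 0.119 and 0.335 in SP against 0.968, 0.536 and 0.988 in MP.

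For each of these 3 ratios the groups did not overlap, and the two-sided exact permutation test gave p = 0.1, the smallest that 3 against 3 libraries allow, so none could pass 0.05. The ratio of COL4A2 to COL4A1 was 0.783, 0.982 and 0.708 in SP against 0.891, 0.816 and 0.831 in MP (exact permutation p = 0.8). The ratio of COL6A2 to COL6A1 was 0.871, 0.688 and 0.740 in SP against 0.636, 0.605 and 0.794 in MP (exact permutation p = 0.3). That of COL6A3 to COL6A1 gave exact permutation p = 0.4, and that of COL18A1 to COL15A1 gave 0.9. In these 4 the groups overlapped.

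**Figure D4:**
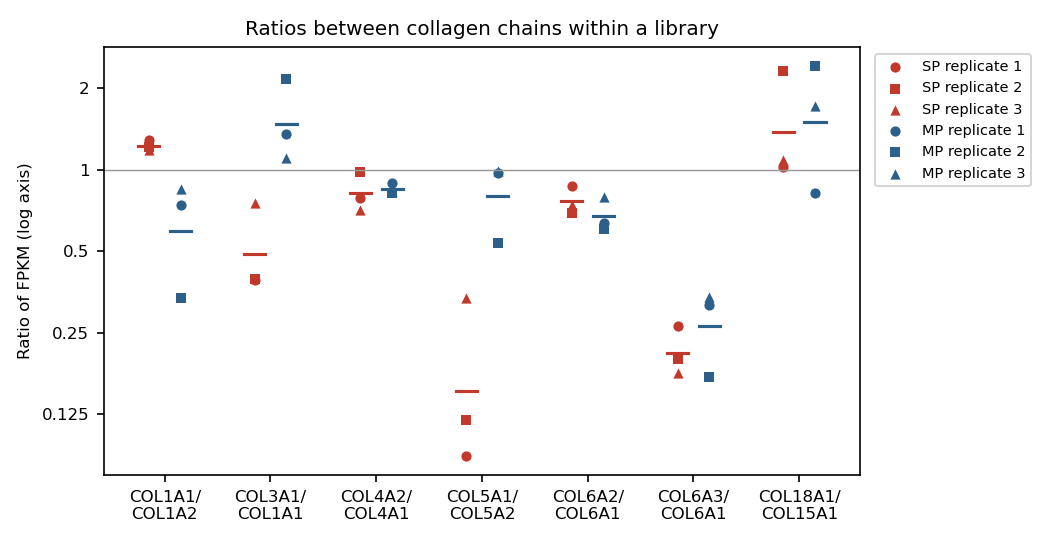
Ratio of FPKM between collagen genes within a library (vertical log axis) for 7 ratios, with SP libraries in red and MP libraries in blue, a marker shape for each replicate number, and a bar at the geometric mean of each group. COL1A1/COL1A2 is at 1.18 to 1.28 in SP and at 0.337 to 0.850 in MP, while COL4A2/COL4A1 overlaps between the groups.

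Levels of the tested collagens varied more among MP than among SP libraries. Whether this held over all tested genes was not examined. The highest value of a group exceeded the lowest by a median of 2.33 times in SP and 4.34 times in MP over the 20 tested members, and the MP range was the wider in 17 of 20. MP replicate 1 was the highest MP library for 17 of the 20, and MP replicate 2 the lowest for 17. The summed fibroblast markers were 8440.1, 4986 and 2339.9 FPKM across the MP libraries, lowest in MP replicate 3. The summed epithelial markers were highest in MP replicate 2, at 4705 FPKM against 1023 and 1267 FPKM in MP replicates 1 and 3. SP replicate 2 was the lowest SP library for 13 of the 20. The epithelial markers summed to 196, 1803 and 1010 FPKM in SP replicates 1, 2 and 3. The part of epithelial cells in these orders was not tested. The ratio of COL1A1 to DCN, the fibroblast proteoglycan decorin, was 0.558, 0.429 and 0.382 in SP against 0.156, 0.0237 and 0.172 in MP. For COL6A1 to DCN it was 0.120, 0.116 and 0.193 in SP against 0.0967, 0.0383 and 0.0839 in MP, and for COL3A1 to DCN the groups overlapped. The ratios to DCN and CDH5 were chosen after the values were seen and were not tested.

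Genes that make, process, bind and break down collagen were read from 4 lists, of which 44 genes were tested and 21 called, beside 39.2% of all tested genes. The number called was 11, 12 and 12 without SP replicates 1, 2 and 3. Of 22 tested genes of chain modification, folding and export, 3 were higher in SP, 5 lower and 14 did not pass (median log2 fold change −0.61). The share called, 36.4%, was near the 39.2% of all tested genes. The largest fall was in P4HA3, a catalytic subunit of prolyl 4-hydroxylase, at 1.26, 1.58 and 5.62 FPKM in SP against 67.9, 18.5 and 29.0 FPKM in MP (−3.34 ± 0.56 SE, limma adjusted p = 0.00513). CRTAP and P3H2 belong to prolyl 3-hydroxylation, and both fell. CRTAP averaged 13.6 ± 2.78 FPKM in SP against 41.6 ± 11.2 FPKM in MP (SD), without overlap (−1.53 ± 0.27 SE, limma adjusted p = 0.00619). P3H2 had 0.441, 1.06 and 1.62 FPKM in SP against 7.56, 5.40 and 4.00 FPKM in MP (−1.71 ± 0.31 SE, limma adjusted p = 0.00640). COLGALT2, a collagen galactosyltransferase, rose, with 46.7, 25.0 and 22.4 FPKM in SP against 2.52, 4.34 and 12.9 FPKM in MP (2.27 ± 0.52 SE, limma adjusted p = 0.0137); without SP replicate 1 it did not pass (0.0517). The collagen chaperone SERPINH1 was at 431, 162 and 261 FPKM in SP against 983, 212 and 312 FPKM in MP and did not pass (−0.61, 95% interval −1.98 to 0.76).

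Of 11 tested genes of propeptide cleavage and cross-linking, 6 were lower in SP (LOX, LOXL1, LOXL3, PCOLCE, PCOLCE2 and ADAMTS2), 1 (FURIN, a propeptide convertase called in 10 of 18 alternatives) was higher and 4 did not pass (median −1.47). The share called was 63.6%, beside 39.2% of all tested genes, and the share lower 54.5%, beside 18.7%. For LOXL1, LOXL3 and ADAMTS2 the filter fixed the direction, since no SP library reached 1 FPKM. With 1 library left out, 4 to 7 genes of this list were lower. PCOLCE2, an enhancer of the procollagen C-proteinase, fell furthest, with 1.05, 1.91 and 2.61 FPKM in SP against 89.5, 47.0 and 18.8 FPKM in MP (−3.99 ± 0.53 SE, limma adjusted p = 0.00268). The proteinase itself, BMP1, had overlapping groups and did not pass (0.26). The lysyl oxidases, which cross-link fibrils, fell in 3 of 5 tested. LOX had 3.04, 2.99 and 2.38 FPKM in SP against 16.4, 8.03 and 6.32 FPKM in MP (−1.47 ± 0.34 SE, limma adjusted p = 0.0145), and did not pass without SP replicate 3 (0.0509). LOXL1 and LOXL3 had log2 fold changes of −2.64 ± 0.48 and −1.74 ± 0.35 (SE; limma adjusted p = 0.00680 and 0.00863).

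Of 6 tested receptors for collagen, 3 rose, 1 fell and 2 did not pass (median 0.86). The share called was 66.7%, beside 39.2% of all tested genes, and the share higher 50%, beside 20.5%. ITGA2, the alpha subunit of a collagen-binding integrin, was at 25.4, 24.2 and 25.5 FPKM in SP against 1.78, 7.04 and 4.06 FPKM in MP (2.43 ± 0.38 SE, limma adjusted p = 0.00415). Its beta partner ITGB1 was at 194, 256 and 180.4 FPKM in SP against 113, 142 and 105 FPKM in MP (0.80 ± 0.24 SE, limma adjusted p = 0.0331), a call lost without any single library (limma adjusted p from 0.0508 to 0.110). DDR2, a receptor tyrosine kinase for fibrillar collagen, was at 29.4, 27.1 and 25.5 FPKM in SP against 9.09, 6.59 and 14.5 FPKM in MP (1.42 ± 0.29 SE, limma adjusted p = 0.00984). LAIR1, an inhibitory receptor of leukocytes, was at 0.0439, 0 and 0 FPKM in SP, where the zeros are as listed, against 3.81, 3.54 and 4.56 FPKM in MP (−2.29 ± 0.19 SE, limma adjusted p = 0.000689); the filter fixed its direction.

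Of 5 tested genes of collagen breakdown and uptake, 2 fell and 3 did not pass (median −0.14), a share of 40% called beside 39.2% of all tested genes. MMP2, a gelatinase, was at 11.4, 9.14 and 18.0 FPKM in SP against 141, 35.2 and 33.3 FPKM in MP (−2.07 ± 0.55 SE, limma adjusted p = 0.0226), but did not pass without SP replicates 1 or 2 (0.0708 and 0.0702). MRC2, an endocytic receptor for collagen, was at 4.66, 5.01 and 3.11 FPKM in SP against 24.9, 6.99 and 11.2 FPKM in MP (−1.39 ± 0.43 SE, limma adjusted p = 0.0354). Its call was lost without SP replicates 1, 2 or 3 (limma adjusted p = 0.0817, 0.0682 and 0.107) and without MP replicates 1 or 3 (0.0667 and 0.0541). The collagenases MMP1, MMP8 and MMP13 stayed under 1 FPKM in all libraries.

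**Figure D5:**
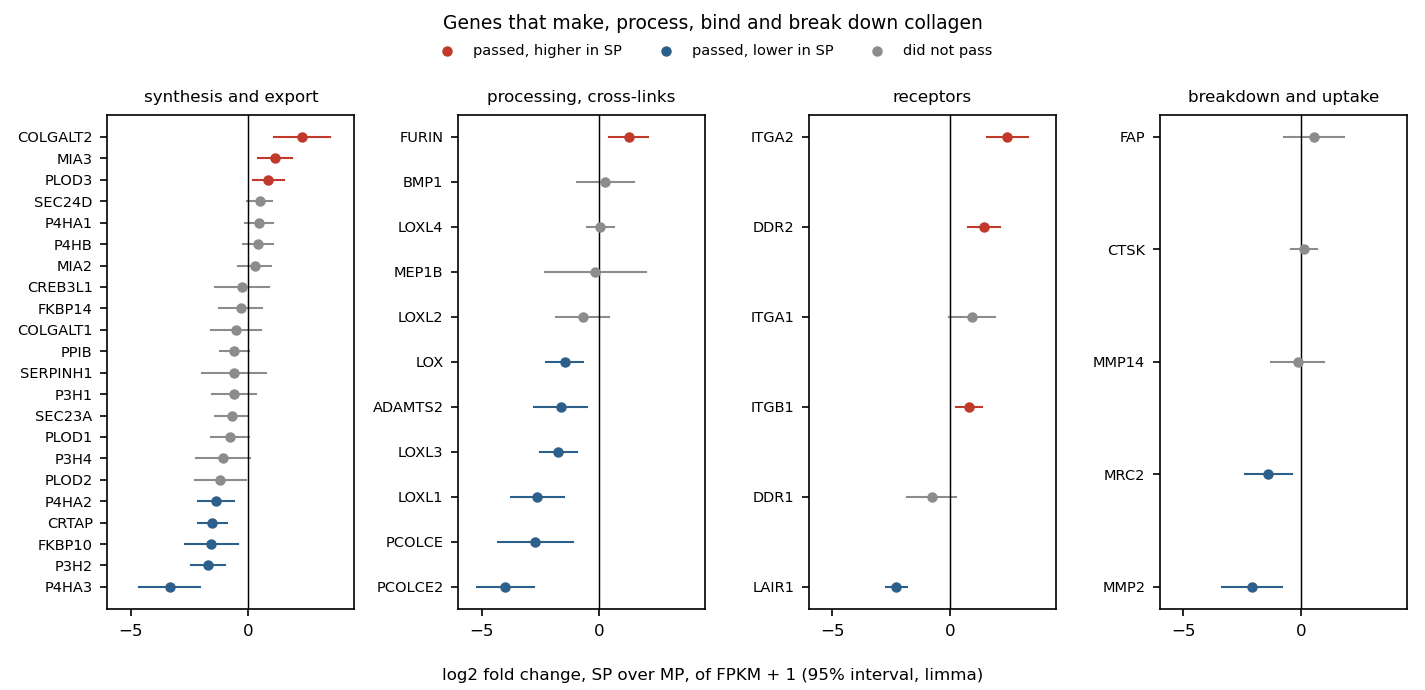
log2 fold change of SP over MP (horizontal axis, on FPKM + 1, limma) with its 95% interval for the 44 tested genes of collagen synthesis and export, processing and cross-linking, reception, and breakdown and uptake. PCOLCE2 at −3.99 and P4HA3 at −3.34 lie furthest to the left, and ITGA2 at 2.43 and COLGALT2 at 2.27 furthest to the right.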

How the data were processed

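Per the file headers, the authors deposited FPKM for each library; no scaling between libraries is stated. The submitters' processing notes name cutadapt 2.5, HISAT2 2.1.0 and the build ARS-UCD1.2; for the counting tool, annotation and strand setting the details were not given in the sources used here. Libraries were made with a stranded kit, per the labels' protocols. The 1 row without a gene ID, a pool of symbols, was left out. Titles gave groups and replicate numbers. Genes that reached 1 FPKM in 3 or more libraries (with libraries left out, in as many as the smaller group holds) were tested with limma 3.58.1 (R 4.3.3; trend, two-sided) after the transform log2(FPKM + 1), adjusted over all 12127 genes; this scale understates the change of low genes. The fit was tested on simulated data. Ratios were tested by exact permutation (scipy 1.17.1). Alternatives were other pseudocounts, filters, scalings, no trend, the replicate number as a block, and libraries left out. Types and gene lists follow textbook roles; members and lists were chosen with earlier results of these data known. Named in full by rule were the most abundant members of each type, every member called higher, the 5 largest falls, and up to 4 called genes per list; the other members were added so that all are accounted for. SERPINH1, BMP1, FURIN and the collagenases were named after their values were seen. Coordinates come from the files' loci, 1-based, introns included. Of 58 list genes, P3H3 had no matching symbol.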

Additional observations from a re-analysis of the deposited data

How the results depend on the processing

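Over 18 alternative fits the 20 tested collagens gave 351 values, of which 280 kept direction and side of the threshold, 63 lost a call and 6 gained one; COL5A2 changed sign in the other 2, without SP replicate 3 (0.08) and without MP replicate 1 (0.34), was not called in either, and ran from −0.76 to 0.34 with 1 library left out. With no filter on low values 1 collagen was higher in SP, and 13 pathway genes were called. At a mean of at least 5 FPKM 6 collagens were lower; fewer genes were tested there. With 1 library left out, 0 to 3 collagens were higher and 6 to 14 lower, 11 to 19 pathway genes were called, and 2478 to 5092 of all genes. With 1 replicate number left out, which leaves 2 libraries a group, 0 to 1 were higher and 5 to 10 lower, 5 to 13 pathway genes were called, and 1112 to 3574 of all genes; the cause of these losses was not tested. With 1 library left out the log2 ratio of summed FPKM ran from −3.65 to −2.05 for fibrillar, −4.17 to −2.61 for beaded and −2.61 to −1.13 for all collagens. The same replicate numbers correlated at 0.105, 0.533 and −0.085 in their deviations from the group means, not all over 0.1; the file headers give both groups the same numbers without saying what a number marks, so whether the libraries are paired is not settled and the fit without a block was kept. With the replicate block 4793 of all genes passed, 3 collagens were higher and 10 lower; COL1A1 passed (adjusted p = 0.0289), COL4A5 did not (0.0525), and COL4A1 had 0.00975. The shallower SP libraries limit statements on members near 0.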
